A study of Mus musculus with 30 samples.

Results

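Male (XY) mouse primordial germ cells that carry the Rnf2delta genotype were compared with control male germ cells of the same embryonic day (E12.5). The arrays were chosen by genotype, sex and stage in the sample labels: 3 arrays of Ring1+;Rnf2delta cells, called Rnf2delta here, and 3 arrays of Ring1+;Rnf2+ cells, called control here. These are 6 of the 30 Affymetrix arrays of a series on how Polycomb repressive complex 1 (PRC1) sets the time of sexual differentiation in female germ cells. Both genotypes carry Ring1+, a mixed background of 129/Sv and C57BL6J, and Oct4(deltaPE)-GFP, a reporter active in germ cells. Gonads were dissociated with trypsin, GFP-positive cells were sorted, and the RNA of 500 cells per sample was amplified across the transcriptome before labelling. The labels do not say how or in which cells Rnf2 was deleted, nor whether replicate arrays stem from different animals. The p-values therefore reflect how far these samples vary among themselves, and that variation may be technical.

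PRC1 is a chromatin complex that keeps developmental genes silent. Its catalytic subunits, the paralogues Rnf2 (also called Ring1B) and Ring1, place ubiquitin on histone H2A, and variant forms of the complex hold germline genes silent in other cell types. Around the stage sampled here, mouse germ cells reach the gonad and turn on germline genes; female cells then enter meiosis in response to retinoic acid and bone morphogenetic proteins, while male cells stop dividing and take the spermatogenic path.

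The deposited values are log2 signals, 1 per probe set and array, with array medians between 2.52 and 2.66. A gene's change below is the mean log2 signal on Rnf2delta arrays minus that on control arrays, with its standard error (SE). It was tested by limma's moderated test in 1 fit of all 30 arrays, adjusted by the Benjamini-Hochberg method over 15180 genes, with a threshold of 0.05. All 12 germ cell markers examined lay above the 40th percentile of each of the 6 arrays. That level is low, and 15180 of 19937 genes exceeded it on at least 3 of the 30 arrays. None of 17 Sertoli and supporting cell markers lay below it on all 6 arrays. The count therefore does not tell germ cells from somatic cells. Dazl, an RNA-binding protein of the germline, read 8.52, 8.51 and 8.56 on Rnf2delta arrays and 8.48, 8.40 and 8.41 on control arrays, and Pou5f1, the gene of the Oct4 reporter, read 9.47, 9.39 and 9.22 on Rnf2delta arrays and 9.48, 9.66 and 9.14 on control arrays. Summed over the 12 markers the linear signal was 2653, 2621 and 2334 on Rnf2delta arrays, against 2582, 2579 and 2442 on control arrays. In such bulk samples fewer cells of a type and less RNA per cell cannot be told apart.

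Of the 6 arrays, Rnf2delta replicate 3 stood apart by embryonic globin signal. Hbb-y, an embryonic beta-like globin of primitive red cells, read 1.85, 1.88 and 9.71 on Rnf2delta arrays and 1.87, 1.73 and 1.90 on control arrays; the other 24 arrays of the series read 1.56 to 3.22. Hba-x, the embryonic alpha-like globin, read 2.09, 2.44 and 4.0 on Rnf2delta arrays and 2.30, 2.28 and 2.20 on control arrays. Hbb-bh1 read 1.86, 1.63 and 3.11 on Rnf2delta arrays, against 1.75, 1.58 and 1.68 on control arrays. Hbb-bh2 read 2.18, 1.91 and 2.03 on Rnf2delta arrays and 1.92, 1.97 and 1.84 on control arrays. The high values were thus those of 3 globin genes on a single array. The linear signal summed over 15 erythroid markers was 142, 151 and 981 on Rnf2delta arrays and 147, 147 and 132 on control arrays, with 119 to 159 on the other 24. Alas2, the haem synthesis enzyme of red cells, read 2.66, 2.48 and 2.79 on Rnf2delta arrays and 2.50, 2.59 and 2.6 on control arrays. Gata1, the erythroid transcription factor, read 2.33, 2.51 and 2.52 on Rnf2delta arrays and 2.17, 2.32 and 2.39 on control arrays. Neither came near the size of the Hbb-y signal on the globin array. Of the 11 erythroid markers tested none passed (Hbb-y change 2.65, limma adjusted p = 0.354). Each result that follows is given with this array, and without it where a named gene lost its call. Genes that passed only without this array are not all named.

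**Figure D1:**
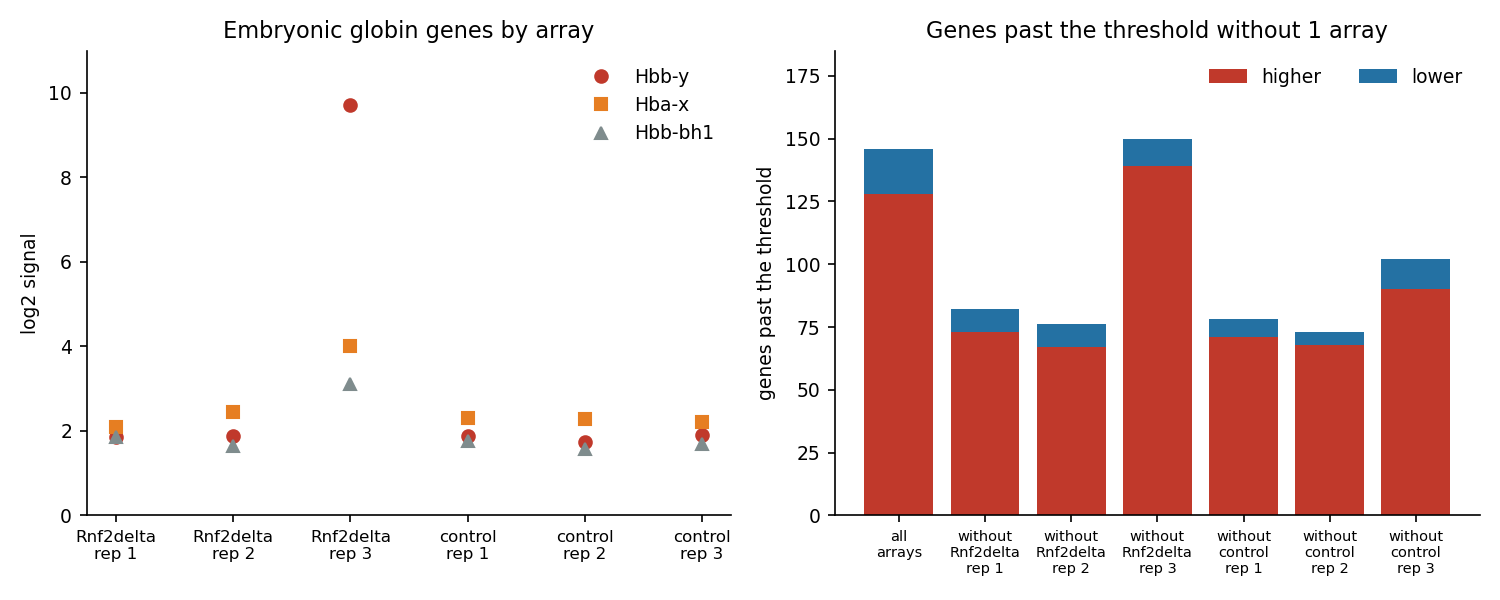
Left, log2 signal of the globin genes Hbb-y, Hba-x and Hbb-bh1 on the 3 Rnf2delta and 3 control arrays of E12.5 males, with Hbb-y at 9.71 on Rnf2delta replicate 3 alone. Right, number of genes past the adjusted p threshold, higher (red) or lower (blue) in Rnf2delta, with all arrays (146) and with each of the 6 arrays left out (73 to 150).

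Rnf2 itself was lower in Rnf2delta cells. Its probe set (10358698) read 4.09, 4.45 and 4.46 on Rnf2delta arrays, against 5.22, 5.68 and 5.21 on control arrays, with no overlap. It fell by 1.03 ± 0.19 on the log2 scale (SE; limma adjusted p = 0.00224), and by 1.1 without the globin array (adjusted p = 0.00473). Which exons the probe set covers is not given in the sources used here, so its level may check nothing about the deletion. Ring1, the paralogue, read 3.03, 2.93 and 3.03 on Rnf2delta arrays and 3.38, 3.35 and 3.24 on control arrays, a change of -0.33 (adjusted p = 0.519).

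Loss of Rnf2 went mostly with higher signal. In E12.5 males 146 genes passed the threshold, 0.962% of those tested: 128 rose (0.843%) and 18 fell (0.119%). The groups did not overlap for any of the 146; over all genes tested, all 3 Rnf2delta arrays lay above all 3 control arrays for 1311 genes (8.64%) and below them for 909 (5.99%). The median change of the 128 was 0.96 and that of the 18 was -0.78, with 54 rises over 1 and 4 falls beyond -1 on the log2 scale. Without the globin array 150 genes passed, 139 higher (0.916%) and 11 lower (0.0725%). Of the 128 rises 105 kept their call and 23 lost it, whereas of the 18 falls 8 kept it and 10 lost it. The falls numbered 9 without Rnf2delta replicate 1, 9 without Rnf2delta replicate 2, 7 without control replicate 1 and 5 without control replicate 2. The count of all calls was 82 without Rnf2delta replicate 1, 76 without Rnf2delta replicate 2, 78 without control replicate 1 and 73 without control replicate 2.

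**Figure D2:**
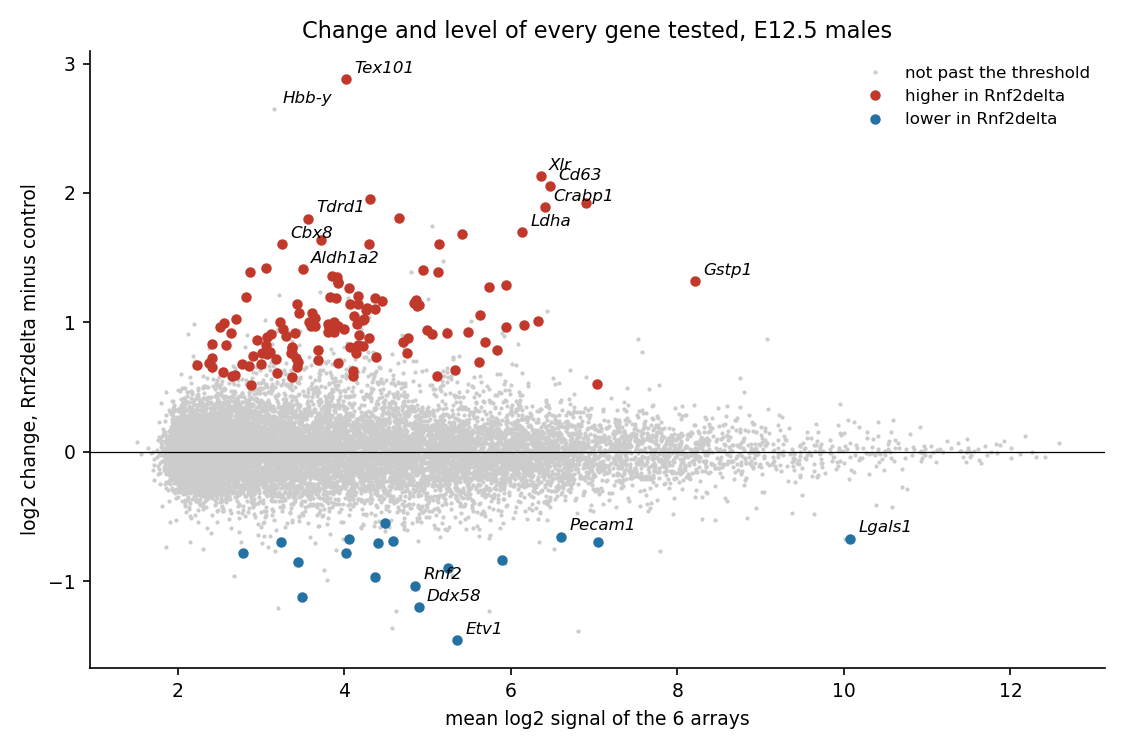
Log2 change (Rnf2delta minus control) of each of 15180 genes in E12.5 males against the mean log2 signal of the 6 arrays; red points are the 128 genes past the adjusted p threshold that were higher in Rnf2delta, blue points the 18 that were lower. Tex101 is the highest called gene at 2.88, and Hbb-y, at 2.65, was not past the threshold.

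Genes that germ cells switch on when they reach the gonad, and genes of the piRNA pathway that silences transposons there, were among the largest rises. The lists here and below were chosen with earlier results of these data known, and some genes stand in more than 1 list. Their shares therefore describe the lists and test nothing. Of 24 tested genes of germline licensing and the piRNA pathway 4 rose (16.7%, against 0.843% of all genes tested) and none fell. The median change was 0.37, against 0.0075 over all genes tested. Without the globin array 7 rose, and which genes passed only then is not given here. Tex101, a glycoprotein of the germ cell surface, read 5.61, 5.52 and 5.24 on Rnf2delta arrays and 2.66, 2.36 and 2.71 on control arrays. It rose by 2.88 ± 0.30, or 7.37-fold (limma adjusted p = 2.33e-06; change 2.99 without the globin array, adjusted p = 2.02e-05), the largest rise of the comparison. Tdrd1, a Tudor domain scaffold of piRNA-loaded proteins, read 4.67, 4.79 and 3.94 on Rnf2delta arrays and 2.77, 2.66 and 2.57 on control arrays. Its lowest Rnf2delta value, on the globin array, was still above every control value, as for all 128 genes that rose. Tdrd1 rose by 1.80 ± 0.27, or 3.49-fold (limma adjusted p = 0.00041). Mael, a piRNA factor needed for transposon silencing in testis, read 6.54, 6.60 and 5.97 on Rnf2delta arrays and 5.37, 4.94 and 4.97 on control arrays, a rise of 1.27 ± 0.26 (adjusted p = 0.00737). Ddx25, a testis RNA helicase, rose by 1.02 ± 0.21 (adjusted p = 0.00821). The calls of both genes ended without control replicate 2 (adjusted p = 0.0588 for Mael, 0.0675 for Ddx25), without Rnf2delta replicate 1 (0.0556 and 0.0595) or without Rnf2delta replicate 2 (0.0652 and 0.0929). Mov10l1, the RNA helicase that starts piRNA processing and is named after its values were seen, lay higher on all 3 Rnf2delta arrays (6.54, 6.66 and 5.88, against 5.74, 5.4 and 5.27) without passing (0.89, adjusted p = 0.0543). Tdrd9, a further Tudor domain protein of the pathway, changed by 0.54 (adjusted p = 0.0983), Ddx4 (the germline helicase Vasa) by 0.36 (0.813) and Dazl by 0.10 (0.983), none past the threshold.

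The promoters of the 4 most raised licensing and meiotic genes with an entry in the RefSeq promoter table (GRCm38.p6) are shown because PRC1.6, the variant PRC1 that silences germline genes, is directed to DNA in part by MGA with MAX, which bind the E-box CACGTG, and by E2F6. Each runs from 250 bases before the transcription start to 50 after it, on the strand of the gene, with an E-box in capitals. The windows are chr7:24672001-24672300 (minus strand) for Tex101, chr19:56825959-56826258 (plus strand, promoter 1 of 3) for Tdrd1, chr3:102936051-102936350 (minus strand) for Sycp1 and chr1:166238695-166238994 (minus strand) for Mael.
Tex101: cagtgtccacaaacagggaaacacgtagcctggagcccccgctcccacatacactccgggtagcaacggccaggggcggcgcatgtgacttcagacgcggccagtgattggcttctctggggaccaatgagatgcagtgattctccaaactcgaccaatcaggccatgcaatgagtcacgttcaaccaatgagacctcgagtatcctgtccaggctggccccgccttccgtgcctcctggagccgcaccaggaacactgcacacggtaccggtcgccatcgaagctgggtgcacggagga
Tdrd1: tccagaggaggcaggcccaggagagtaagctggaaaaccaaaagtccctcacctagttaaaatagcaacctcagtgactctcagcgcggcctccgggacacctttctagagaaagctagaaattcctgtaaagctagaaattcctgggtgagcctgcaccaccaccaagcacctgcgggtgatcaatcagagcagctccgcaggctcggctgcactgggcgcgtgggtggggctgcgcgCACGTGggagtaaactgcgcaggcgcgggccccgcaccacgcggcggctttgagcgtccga
Sycp1: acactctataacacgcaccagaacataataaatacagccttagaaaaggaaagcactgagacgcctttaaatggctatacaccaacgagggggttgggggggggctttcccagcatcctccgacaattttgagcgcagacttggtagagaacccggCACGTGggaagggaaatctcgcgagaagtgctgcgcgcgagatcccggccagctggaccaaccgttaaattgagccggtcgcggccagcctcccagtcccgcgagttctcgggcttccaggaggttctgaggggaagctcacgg
Mael: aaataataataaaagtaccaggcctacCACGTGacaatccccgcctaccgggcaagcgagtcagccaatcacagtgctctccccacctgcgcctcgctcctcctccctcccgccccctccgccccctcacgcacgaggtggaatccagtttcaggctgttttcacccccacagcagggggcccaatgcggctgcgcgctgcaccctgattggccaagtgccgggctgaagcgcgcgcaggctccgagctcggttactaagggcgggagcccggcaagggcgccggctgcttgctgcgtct
The E-box began 11 bases before the start in Tdrd1, 94 before it in Sycp1 and 223 before it in Mael, and the Tex101 window held none. An E-box was present in 4 of the 6 licensing and meiotic genes that rose and have a promoter entry (66.7%), in 20 of the 51 tested genes of those lists with an entry (39.2%), in 18 of the 103 risen genes with an entry (17.5%) and in 1310 of all 12002 tested genes with an entry (10.9%). It occurred in 7.15% of all 32851 promoters of the table. The E2F core GCGGGAA was searched on both strands like the E-box, and 0.457% of all promoters held both; it was in 0 of the 6, in 16 of the 51 (31.4%), in 14 of the 103 (13.6%) and in 8.94% of the 12002. These are matches of letters in a fixed window, given as a description.

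The X chromosome carries families of genes used almost only in the germline, and several genes of a list of X-linked germ cell genes were raised. Of the 28 genes of that list 18 were on the array, and 5 were removed by the filter on low signal. Of the 13 tested 4 rose (30.8%, against 0.843% of all genes) and none fell (median change 0.93, against 0.0075 over all genes). Xlr, a member of the X-linked lymphocyte-regulated family, read 7.39, 7.48 and 7.39 on Rnf2delta arrays and 5.88, 5.16 and 4.85 on control arrays, a rise of 2.13 ± 0.30 (4.37-fold, limma adjusted p = 0.000144). Its family holds near-identical copies, so the probe set may read several of them. Taf9b, a subunit of transcription initiation complexes that is not confined to the germline, read 5.68, 5.56 and 5.44 on Rnf2delta arrays and 4.07, 3.78 and 3.41 on control arrays. Taf9b rose by 1.80 ± 0.32 (limma adjusted p = 0.00168). The Rnf2delta arrays were close together for both genes, while control replicate 1 was the highest of the controls. Tex11, needed for crossing over in male meiosis, read 4.88, 4.77 and 4.08 on Rnf2delta arrays and 3.17, 3.19 and 3.46 on control arrays, a rise of 1.30 ± 0.23 (adjusted p = 0.00175). Mageb4, a MAGE family gene, read 5.93, 5.56 and 5.48 on Rnf2delta arrays and 4.91, 3.94 and 3.89 on control arrays, a rise of 1.41 ± 0.31 (adjusted p = 0.0139). The Mageb4 call ended without any 1 of control replicates 2 and 3 and Rnf2delta replicates 1 and 2 (adjusted p = 0.0524 to 0.127). Rhox13, a homeobox gene of male germ cells named after its values were seen, read 4.72, 6.60 and 6.47 on Rnf2delta arrays and 4.26, 3.73 and 4.57 on control arrays; the change of 1.75 did not pass (adjusted p = 0.0511). Prps1, an X-linked gene outside the list that makes the precursor of nucleotides, read 5.04, 5.95 and 4.87 on Rnf2delta arrays and 3.05, 2.88 and 4.07 on control arrays, and rose by 1.96 ± 0.32 (adjusted p = 0.00092).

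**Figure D3:**
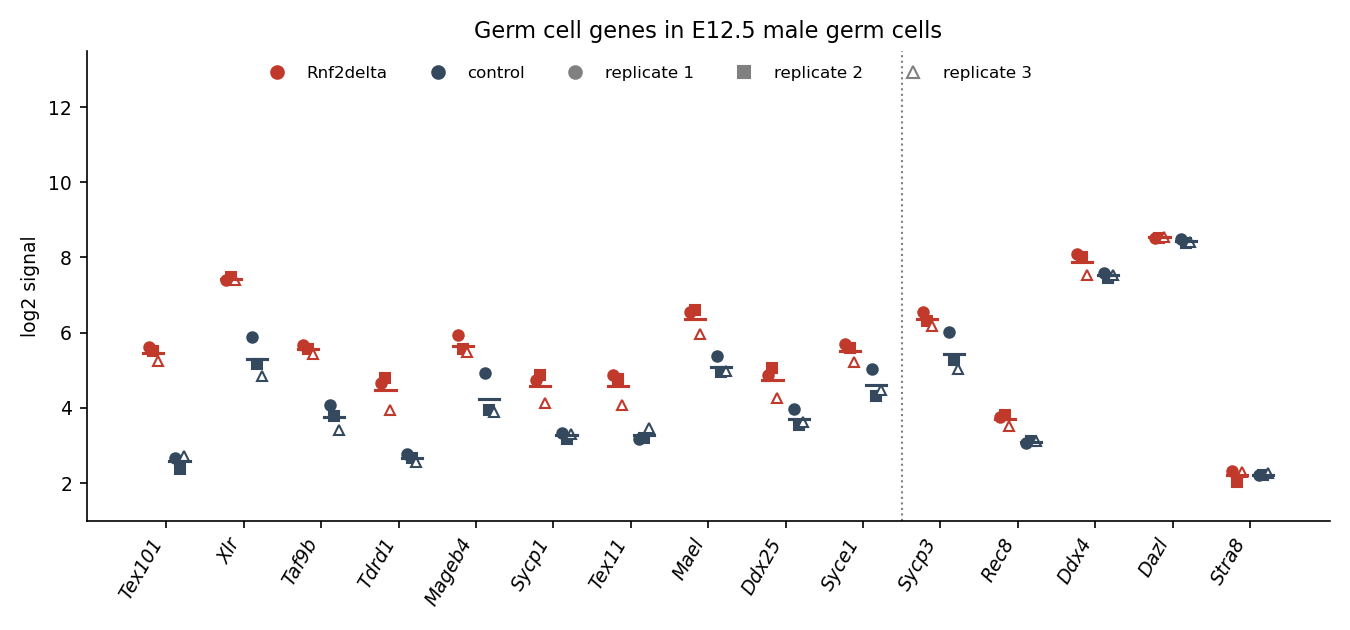
Log2 signal of 15 genes of the germ cell lists on each E12.5 male array, Rnf2delta (red, left of each pair) and control (blue), with replicates as circle, square and open triangle and bars at group means. The 10 genes left of the dotted line passed the threshold; Sycp3, Rec8, Ddx4, Dazl and Stra8 did not, and Stra8 read 2.03 to 2.31 on all 6 arrays.

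Some genes of meiosis rose in males and Stra8 was not among them. The list for meiotic entry and prophase had 36 tested genes, of which 3 rose (Sycp1, Tex11 and Syce1; 8.33%, against 0.843% of all genes) and none fell, with a median change of 0.16 (0.24 without the globin array). Sycp1, which forms the transverse filaments of the synaptonemal complex, read 4.73, 4.88 and 4.13 on Rnf2delta arrays and 3.32, 3.18 and 3.31 on control arrays. It rose by 1.31 ± 0.28 (limma adjusted p = 0.0133; 1.54 without the globin array, adjusted p = 0.00768). Its call ended without any 1 of control replicates 1 and 2 and Rnf2delta replicates 1 and 2 (adjusted p = 0.056 to 0.115). Syce1, of the central element of the same structure, read 5.70, 5.61 and 5.23 on Rnf2delta arrays and 5.03, 4.31 and 4.48 on control arrays, a rise of 0.91 ± 0.22 (adjusted p = 0.035). That call ended without any 1 of control replicates 2 and 3 and Rnf2delta replicates 1 and 2 (adjusted p = 0.153 to 0.241). Stra8, the gene induced by retinoic acid that is required for meiotic entry, read 2.31, 2.03 and 2.28 on Rnf2delta arrays and 2.21, 2.21 and 2.26 on control arrays. The 2 groups overlapped at the low end of the array's range (change -0.02, adjusted p = 0.998). Meioc, which holds germ cells in meiotic prophase, read 3.07, 2.64 and 1.94 on Rnf2delta arrays and 1.78, 1.79 and 1.88 on control arrays (0.74, adjusted p = 0.333), with the globin array the lowest of the Rnf2delta arrays; with array weights it passed (0.92, adjusted p = 0.0229). Sycp3, the axial element protein, read 6.56, 6.32 and 6.18 on Rnf2delta arrays and 6.03, 5.26 and 5.02 on control arrays (0.92, adjusted p = 0.299); it passed with the compared arrays only and the replicate number as a block (adjusted p = 0.0173). Rec8, a meiotic cohesin named after its values were seen, changed by 0.60 (adjusted p = 0.488). The lowest Rnf2delta array lay above the highest control array for both genes, but in the fit of all 30 arrays the differences were not past the threshold.

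Retinoic acid, which meiotic entry needs, is made by ALDH1A enzymes and held in cells by CRABP proteins. Of 17 tested genes of its synthesis and binding 2 rose (11.8%, against 0.843% of all genes) and none fell (median 0.17, 0.11 without the globin array). Crabp1, a cytoplasmic carrier, read 7.43, 7.30 and 7.33 on Rnf2delta arrays and 5.59, 6.02 and 4.79 on control arrays, a rise of 1.89 ± 0.23 (3.70-fold, limma adjusted p = 1.27e-05). Aldh1a2, the main enzyme of retinoic acid synthesis in the embryo, read 4.68, 4.26 and 3.68 on Rnf2delta arrays and 3.13, 2.89 and 2.37 on control arrays, a rise of 1.41 ± 0.26 (adjusted p = 0.00272). The lowest Rnf2delta array exceeded the highest control array, as for all 128 genes that rose. The related enzymes Aldh1a1 and Aldh1a3 changed by -0.45 and 0.12, Rdh10, which makes their substrate, by -0.25, and Cyp26b1, which degrades retinoic acid in the fetal testis, by -0.05; none passed.

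Of 21 tested genes of male germ cell fate 2 rose, Mael (above) and Otx2 (9.52%, against 0.843% of all genes), and none fell (median 0.15). Otx2, a homeobox factor, read 4.85, 5.39 and 4.53 on Rnf2delta arrays and 3.93, 3.48 and 4.06 on control arrays, a rise of 1.1 ± 0.23 (limma adjusted p = 0.00961). Leaving out replicate 2 of the controls (adjusted p = 0.101) or of the Rnf2delta arrays (0.12) ended its call. Nanos2, the RNA-binding protein that drives the male programme, read 2.93, 2.50 and 2.46 on Rnf2delta arrays and 2.6, 2.51 and 3.18 on control arrays (-0.14, adjusted p = 0.971), and Nodal, its upstream signal, changed by -0.08 (adjusted p = 0.979). Of 20 tested genes of the oogenic programme and the BMP response none passed (median 0.058, 0.034 without the globin array), Zglp1 at -0.16 and Id1 at -0.02 among them. The 27 pluripotency genes (median -0.063) and the 18 genes of early germ cells (median -0.21) also had no member past the threshold: Nanog changed by -0.06, Sox2 by 0.06, Prdm1, which founds the germline, by -0.33 and Kit, the stem cell factor receptor, by -0.30. A p that misses the threshold does not show that these levels did not differ.

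Among the listed subunits of PRC1 and PRC2 the rise of a single subunit stood beside the fall of Rnf2. Sfmbt2, a Polycomb group protein outside these lists and named after its value was seen, also rose, by 0.84 (limma adjusted p = 0.0371). Cbx8, a chromodomain subunit of canonical PRC1, read 4.09, 4.01 and 4.07 on Rnf2delta arrays and 2.53, 2.35 and 2.48 on control arrays. The arrays of each group lay close together, far from those of the other, and Cbx8 rose by 1.6 ± 0.18 (3.04-fold, limma adjusted p = 5.11e-06). Of 21 PRC1 subunits tested the other 19 did not pass (list median 0.22); Bmi1 changed by 0.28 and Pcgf2 by -0.30 (adjusted p = 0.884 and 0.683). Of 16 genes of PRC1.6 and other repressors of germline genes, Uhrf1 rose (6.25%, against 0.843% of all genes) and none fell. The list median was 0.084 (0.15 without the globin array). Pcgf6, the PRC1.6 subunit, changed by -0.26, Mga by 0.37 and E2f6 by 0.25. No PRC2 subunit of 11 passed (median -0.037, 0.018 without the globin array), with Ezh2 at -0.04 and Eed at -0.06. Uhrf1, which recruits the maintenance DNA methyltransferase, read 4.64, 4.37 and 4.14 on Rnf2delta arrays and 3.12, 3.62 and 3.41 on control arrays, a rise of 1.0 ± 0.25 at the edge of the threshold (adjusted p = 0.0473). That call ended without any 1 of the arrays other than Rnf2delta replicate 3 (adjusted p = 0.0748 to 0.264). Of 14 genes for DNA methylation and demethylation it was the 1 called (7.14%, against 0.843% of all genes that rose, median 0.060). Without the globin array 2 were called (median 0.12): Uhrf1 and Dnmt3b, a de novo DNA methyltransferase, whose change was 0.94 without that array (adjusted p = 0.00768) and 0.64 with it (adjusted p = 0.181). In that list Dnmt1 changed by 0.06, Dnmt3a by 0.51 (adjusted p = 0.0818) and Tet1 by -0.02.

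Developmental regulators are the classical targets of Polycomb. Of 55 developmental transcription factors tested 3 rose (5.45%) and none fell (median 0.066, 0.025 without the globin array), and of 25 Hox genes 2 rose (8%) and none fell (median 0.014, -0.027 without the globin array), against 0.843% that rose over all genes. Zic2, a zinc finger factor of the early nervous system, read 3.51, 3.45 and 4.35 on Rnf2delta arrays and 2.26, 2.12 and 2.67 on control arrays, a rise of 1.42 ± 0.22 (limma adjusted p = 0.000473). The globin array held its highest value, and the change was 1.13 without that array (adjusted p = 0.00505). Eomes, a T-box factor of mesoderm and trophoblast, read 2.97, 2.73 and 2.78 on Rnf2delta arrays and 1.86, 2.12 and 2.00 on control arrays, a rise of 0.84 ± 0.13 (adjusted p = 0.00044). Its control values lay below the 40th percentile of their arrays (2.22, 2.23 and 2.28). The third of these factors was Otx2. Hoxa10 rose by 0.68 ± 0.14 (adjusted p = 0.0102) and Hoxd9 by 0.83 ± 0.18 (adjusted p = 0.0131). Hoxd9 read 2.10, 2.02 and 2.38 on control arrays, below that percentile on control replicates 1 and 2. The Hoxa10 call ended without control replicate 1, control replicate 2 or Rnf2delta replicate 1 (adjusted p = 0.0596 to 0.114), and that of Hoxd9 without control replicate 1, control replicate 2 or Rnf2delta replicate 2 (0.0732 to 0.118). Gata2 changed by 0.18, Gata3 by -0.21 and Tbx3 by 0.15, none past the threshold.

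Regulators of growth and of the cell cycle gave scattered rises. Ccnd1, cyclin D1, which drives cells into S phase, read 4.12, 3.80 and 4.11 on Rnf2delta arrays and 3.01, 2.70 and 2.90 on control arrays, a rise of 1.14 ± 0.16 (limma adjusted p = 0.000144). It was the 1 gene called of 32 for mitotic division (3.12%, against 0.843% of all genes that rose). The list median was 0.041 (0.085 without the globin array). Mki67, the proliferation marker, changed by -0.12 and Top2a by -0.02. Cdkn1c, an imprinted inhibitor of cyclin-dependent kinases, read 4.91, 4.77 and 4.26 on Rnf2delta arrays and 3.49, 3.64 and 3.86 on control arrays, a rise of 0.99 ± 0.17 (adjusted p = 0.00162). It was the sole gene called of 8 cell cycle inhibitors (median 0.075, 0.19 without the globin array) and of the 29 tested genes of the imprinted list (median 0.14). That list leaves out Zdbf2 and Sfmbt2 (above), imprinted genes that also rose. Zdbf2, named after its value was seen, rose by 0.97 (limma adjusted p = 0.0245). Cdkn1b, a further inhibitor, read 4.73, 4.71 and 5.46 on Rnf2delta arrays and 3.74, 3.18 and 4.64 on control arrays, with both replicates 3 the highest (1.11, adjusted p = 0.376). In the insulin-like growth factor axis 2 of 17 genes rose (11.8%, against 0.843% of all genes) and none fell (median 0.12, 0.069 without the globin array). Igfbp2, a secreted binding protein, read 6.39, 5.86 and 5.21 on Rnf2delta arrays and 4.43, 4.63 and 4.24 on control arrays, a rise of 1.39 ± 0.22 (adjusted p = 0.000481). Igf1r, the receptor, rose by 1.14 ± 0.22 (adjusted p = 0.00522), a call that ended without Rnf2delta replicate 1 (0.0517) or Rnf2delta replicate 2 (0.0524).

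Among the rest of the 25 largest rises were several enzymes, grouped here after their values were seen. Gstm5, a glutathione transferase, read 6.38, 6.20 and 6.19 on Rnf2delta arrays and 4.54, 4.65 and 4.53 on control arrays, a rise of 1.68 ± 0.18 (limma adjusted p = 3.02e-06). Gstp1, of another class of that family, read 9.14, 8.77 and 8.72 on Rnf2delta arrays and 7.90, 7.83 and 6.95 on control arrays, a rise of 1.32 ± 0.21 (adjusted p = 0.000496). Both belong to clusters of similar genes, so their probe sets may read neighbours as well. They were the 2 genes that rose of 22 for glutathione and oxidative stress, where none fell (9.09% rose, against 0.843% of all genes; median 0.13). Gsto1, an omega-class glutathione transferase, read 4.42, 4.85 and 4.36 on Rnf2delta arrays and 2.76, 2.91 and 3.04 on control arrays (1.64 ± 0.20, adjusted p = 2.37e-05). Ldha, lactate dehydrogenase A, read 6.96, 6.93 and 7.06 on Rnf2delta arrays and 5.24, 5.43 and 5.18 on control arrays, a rise of 1.70 ± 0.25 (adjusted p = 0.000342). It was the 1 gene called of 21 for glycolysis and glucose uptake (4.76%, against 0.843% of all genes that rose). The list median was 0.071 (0.18 without the globin array). The glucose transporter Slc2a1 changed by 0.27, Hk2 by 0.46 and Pfkm by 0.56, none past the threshold. Dgat2, which completes the synthesis of triglycerides, read 5.88, 5.99 and 5.95 on Rnf2delta arrays and 4.56, 4.31 and 4.13 on control arrays (1.61 ± 0.18, adjusted p = 6.7e-06). For each of these enzymes the lowest Rnf2delta array lay above the highest control array, as for all 128 genes that rose.

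Ddah1, which degrades methylated arginines, rose by 1.6 ± 0.22 (limma adjusted p = 8.69e-05), and Umps, of pyrimidine synthesis, by 1.29 ± 0.22 (0.00157). Cd63, a tetraspanin of endosomes and exosomes, read 7.45, 7.45 and 7.60 on Rnf2delta arrays and 5.67, 5.23 and 5.45 on control arrays, a rise of 2.05 ± 0.33 (4.14-fold, adjusted p = 0.000612). Pseudogene copies of Cd63 and of Ldha exist in the mouse genome, and what their probe sets read of them was not tested. The gene 1700018B24Rik rose by 1.92 ± 0.33 (adjusted p = 0.00162), Aff1, a scaffold of the elongation machinery, by 1.39 ± 0.25 (0.00181), Ly6k, a surface protein of germ cells, by 1.36 ± 0.22 (0.000861) and Rnf227 by 1.35 ± 0.21 (0.00041). All 25 of the largest rises kept their call without the globin array, and 23 kept it under every alternative run; the other 2 were Mageb4 and Sycp1.

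Further genes known from testis or oocyte were seen among the risen genes and are named after their values were seen. Tex19.2, a germline gene specific to rodents, read 4.80, 4.83 and 4.85 on Rnf2delta arrays and 3.50, 3.92 and 3.73 on control arrays, a rise of 1.11 ± 0.19 (limma adjusted p = 0.00145). Rnf212b, a homologue of a crossover factor, rose by 1.05 ± 0.19 (adjusted p = 0.00185); both kept their calls under every alternative run. Ddx43, a germline RNA helicase, rose by 1.16 ± 0.24 (adjusted p = 0.00961; lost without control replicate 1, 0.113, or Rnf2delta replicate 2, 0.0846). Sohlh2, a helix-loop-helix factor of spermatogonia and oocytes, rose by 0.78 ± 0.17 (0.0116; lost without any 1 of control replicate 1 and Rnf2delta replicates 1 and 2, 0.0576 to 0.0955). H1f6, the testis linker histone, rose by 0.94 ± 0.22 (0.0315) and Ldhc, the testis lactate dehydrogenase, by 0.71 ± 0.17 (0.0352). The calls of H1f6 (0.0596 to 0.217) and Ldhc (0.0795 to 0.222) each ended without any 1 of the arrays other than Rnf2delta replicate 3. Hspa2, a chaperone of meiotic spermatocytes, rose by 0.89 ± 0.20 (0.019; lost without any 1 of control replicates 1 and 3 and Rnf2delta replicates 1 and 3, 0.0651 to 0.143).

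Of the lists examined, none had more than 1 member among the 18 genes that fell. Ddx58, which encodes the cytosolic RNA sensor RIG-I, read 4.45, 4.14 and 4.29 on Rnf2delta arrays and 5.55, 5.39 and 5.55 on control arrays. It fell by 1.20 ± 0.17 (2.30-fold lower, limma adjusted p = 0.000144; -1.20 without the globin array, adjusted p = 0.000915). Of 13 genes for RNA sensing and the interferon response it was the 1 called (7.69%, against 0.119% of all genes that fell, median 0.059). Without the globin array Oasl2, an interferon-induced gene named after its values were seen, also passed, with a change of 0.68 (adjusted p = 0.0103); with that array its change was 0.51 (adjusted p = 0.0948). Mavs, the adaptor of RIG-I, changed by -0.16. Etv1, an ETS family factor, read 4.70, 4.86 and 4.34 on Rnf2delta arrays and 5.86, 5.92 and 6.47 on control arrays. It fell by 1.45 ± 0.29 (adjusted p = 0.00799), the largest fall, and the call ended without control replicate 3 (0.0778), its highest control array. Khdc3, known from the cortical complex of oocytes, read 2.76, 3.43 and 2.61 on Rnf2delta arrays and 3.55, 3.82 and 4.81 on control arrays, and fell by 1.13 ± 0.27 (adjusted p = 0.0355). Its call ended without any 1 of control replicates 2 and 3 and Rnf2delta replicates 1 and 3 (0.0624 to 0.37), and its change was -0.96 without the globin array.

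The remaining falls were smaller. Ctnnal1, related to alpha-catenin, fell by 0.97, Plcd1, a phospholipase, by 0.90, Nrsn1 by 0.86, Taf6l, a subunit of histone acetyltransferase complexes, by 0.84, Ext1, which builds heparan sulfate, by 0.78, Map2k6, a kinase of the p38 pathway, by 0.78, Lix1l by 0.71 and Ttc23 by 0.70. Of the 12 largest falls 5 kept their call without the globin array (Etv1, Ddx58, Rnf2, Nrsn1 and Ttc23), and 2 (Rnf2 and Ddx58) kept it under every alternative run. The calls of Ctnnal1 (limma adjusted p = 0.0883 to 0.226 without any 1 of the 6 arrays), Plcd1 (0.0712 to 0.221), Taf6l (0.0588 to 0.117), Ext1 (0.0556 to 0.234), Map2k6 (0.0652 to 0.129) and Lix1l (0.0575 to 0.227) ended without Rnf2delta replicate 3 and also without some other arrays. Those other arrays were control replicates 1 and 2 and Rnf2delta replicate 2 for Plcd1 and Taf6l; control replicates 1 and 2 and Rnf2delta replicates 1 and 2 for Ext1; control replicates 2 and 3 and Rnf2delta replicates 1 and 2 for Map2k6; and all 3 control arrays and Rnf2delta replicate 1 for Lix1l. The Nrsn1 call ended without control replicates 1 or 2 or Rnf2delta replicates 1 or 2 (0.0886 to 0.18), and the Ttc23 call without control replicate 2 (0.0802).

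Markers of the somatic cells of the gonad were examined beside these changes. None of the 17 tested markers of Sertoli and supporting cells, 10 of macrophages and blood cells, 10 of interstitial and mesenchymal cells or 3 of steroidogenic cells passed in limma; Sox9, the Sertoli cell determinant, changed by 0.03 and Amh by -0.42. Their summed linear signal overlapped between the genotypes: 133, 132 and 150 on Rnf2delta arrays and 139, 154 and 152 on control arrays for the Sertoli list, and 60.5, 66.0 and 75.9 on Rnf2delta arrays and 60.9, 64.3 and 63.5 on control arrays for macrophages. The globin array was the highest of the 6 in the macrophage, interstitial (70.4) and steroidogenic (224.2) sums, and the lowest in the germ cell (2334) and mesonephric (87.0) sums. Of 10 tested endothelial markers 1 fell (10%, against 0.119% of all genes) and none rose. Pecam1, an adhesion molecule of endothelium that germ cells express too, read 6.25, 6.11 and 6.48 on Rnf2delta arrays and 6.97, 6.96 and 6.88 on control arrays, a fall of 0.66 ± 0.14 (limma adjusted p = 0.0105). The call ended without any 1 of control replicates 1 and 2 and Rnf2delta replicates 1 and 2 (0.0565 to 0.0954). The summed endothelial signal includes that of Pecam1, so it is not separate from this fall. It was 140, 140 and 165 on Rnf2delta arrays and 190, 188 and 183 on control arrays, with no overlap. The median change of the 10 tested markers was 0.039 (-0.033 without the globin array). Cdh5, a junction protein restricted to endothelium, changed by -0.06. The part of endothelial cells in the other falls was not tested. Of 10 mesonephric markers 1 rose (10%, against 0.843% of all genes), Krt18, an epithelial keratin, by 1.07 ± 0.23 (adjusted p = 0.0118), while its partner Krt8 changed by -0.15 and Pax2 by -0.02. Its call ended without any 1 of control replicates 1 and 2 and Rnf2delta replicates 1 and 2 (0.0726 to 0.124). No gene of 24 for p53 targets and apoptosis (median 0.046), 19 for dissociation stress (median 0.0017) or 6 on the Y chromosome (median -0.13) passed; without the globin array these medians were -0.035, -0.013 and 0.034.

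The same genotypes in E12.5 females gave a wider response, on arrays that stood apart: each correlated with the rest of its group at a mean r of 0.964 to 0.978 over genes, compared with 0.983 to 0.990 for other arrays. There 1174 genes rose (7.73%) and 328 fell (2.16%), on control arrays that the male comparison does not use, and Rnf2 itself fell by 0.63 (limma adjusted p = 0.0294). The 1502 calls were 843 without Rnf2delta female replicate 1, and 86 with the compared arrays only and the replicate number as a block. Of the 128 genes that rose in males 86 also rose in females (67.2% of the male list and 7.33% of the female list), and 122 had a positive change. The median female change was 0.83 over the 128 and 0.046 over all genes tested. How many of all genes had a positive female change was not counted. Of the 18 that fell in males 5 also fell in females (27.8% of the male list and 1.52% of the female list). Tests of the difference itself found 45 genes whose genotype effect differed between males and females (0.296%, 12 higher and 33 lower in males). None of the 146 male calls was among them. At an unadjusted limma p under 0.05 the effect differed for 47 of the 146 and for 2033 of all 15180 genes tested. The 146 were chosen by the male effect, which is part of this difference, so their share cannot be set against that of all genes. The count of 45 was 7 without control male replicate 1, 29 without control male replicate 2, 25 without control male replicate 3, 26 without Rnf2delta male replicate 2, 10 without the globin array, 313 without control female replicate 2, 77 without control female replicate 3, 22 without Rnf2delta female replicate 1, 78 without Rnf2delta female replicate 2 and 259 without Rnf2delta female replicate 3.

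**Figure D4:**
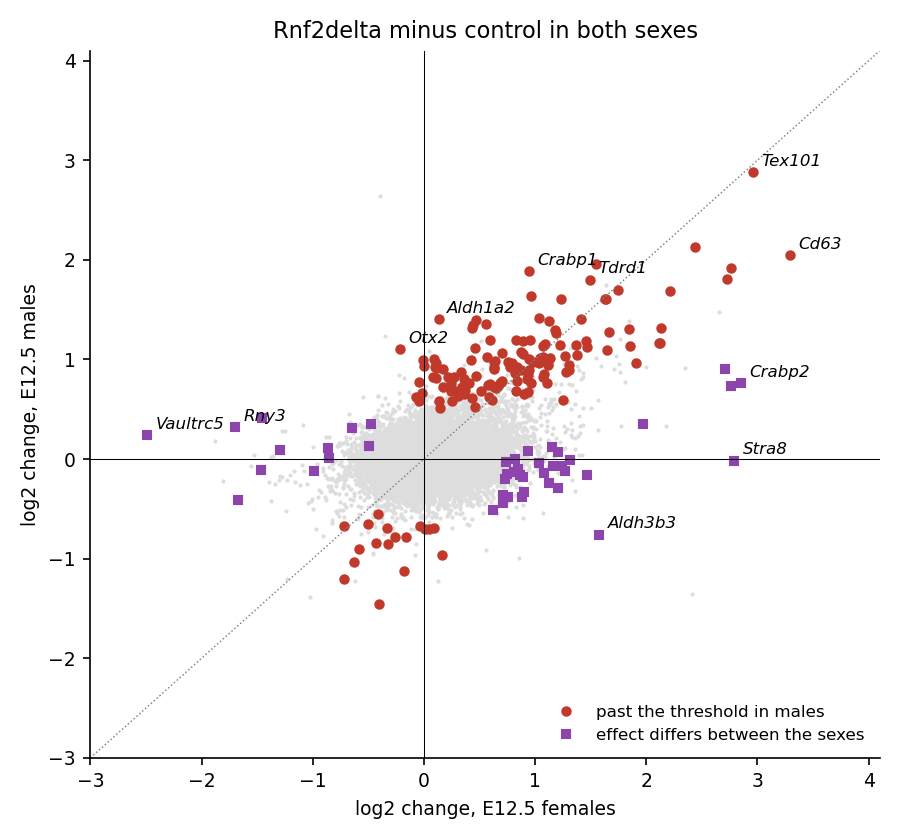
Log2 change (Rnf2delta minus control) of each gene in E12.5 males against that in E12.5 females; red points passed the threshold in males (146), purple squares differed between the sexes (45), and the dotted line marks equal change. Tex101 lies on the line at 2.88 in males and 2.96 in females, whereas Stra8 lies at -0.02 in males and 2.79 in females.

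Stra8 was among the 45. Its genotype change was -0.02 in males and 2.79 in females, a difference of -2.81 ± 0.50 (male minus female, SE; limma adjusted p = 0.0133). Meioc changed by 0.74 in males and 2.77 in females (difference -2.03, adjusted p = 0.0147), and Crabp2 by 0.76 in males and 2.85 in females (-2.09, adjusted p = 0.0147); Crabp2 is named after its values were seen, and its change in males was 0.42 without Rnf2delta replicate 2 and 1.11 without the globin array. With only the arrays compared in the fit, none of these 3 differences passed (adjusted p = 0.142 for Stra8, 0.323 for Meioc and 0.127 for Crabp2). The calls of Meioc and Crabp2 also ended with array weights (0.107 and 0.117), without control male replicate 1 (0.0521 each) or the globin array (0.062 and 0.0604), and that of Crabp2 without Rnf2delta female replicate 1 (0.05). By contrast, Otx2 changed by 1.1 in males and -0.22 in females (difference 1.32 ± 0.32, adjusted p = 0.0657), and Aldh1a2 by 1.41 in males and 0.13 in females (1.27 ± 0.37, adjusted p = 0.109); these differences were not past the threshold.

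The E11.5 males were a day younger and again had controls of their own. In the fit without pairing by replicate number, their Rnf2delta cells had 103 genes that rose (0.679%) and 6 that fell (0.0395%). Rnf2 itself changed by -0.31 there and was not past the threshold (limma adjusted p = 0.802). The 109 calls were 50 without Rnf2delta replicate 3 of E11.5, 52 without control replicate 2 and 62 without control replicate 3. Same-numbered E11.5 male arrays deviated together, and with the compared arrays only and the replicate number as a block 236 genes passed (199 rose and 37 fell), 77 of the 128 among those that rose; with that block over all 30 arrays 116 passed. Of the 128 genes that rose at E12.5, 63 also rose at E11.5 (49.2% of the E12.5 list and 61.2% of the E11.5 list). All 128 had a positive change at E11.5, with a median of 0.79 at E11.5 and 0.96 at E12.5. The 128 were chosen for their rise at E12.5, so the larger median there carries no weight. How many of all genes had a positive or a negative change at E11.5 was not counted. The median change at E11.5 over all genes tested was -0.0017. Of the 18 that fell at E12.5, 1 (Ddx58, named after its value was seen) also fell at E11.5, and all 18 had a negative change. Limma found no gene whose genotype effect differed between the E12.5 and E11.5 males (361 at an unadjusted p under 0.05, 22 of the 146 among them); the gene of smallest p was Atmin, with a difference of 0.93 (E12.5 minus E11.5, adjusted p = 1). The E12.5 effect that chose the 146 is part of the difference between stages too. In all, 53 of the 128 rose in both other comparisons and 32 in neither. Over all genes tested 7.73% rose in E12.5 females and 0.679% in E11.5 males, and the share that rose in both was not counted.

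**Figure D5:**
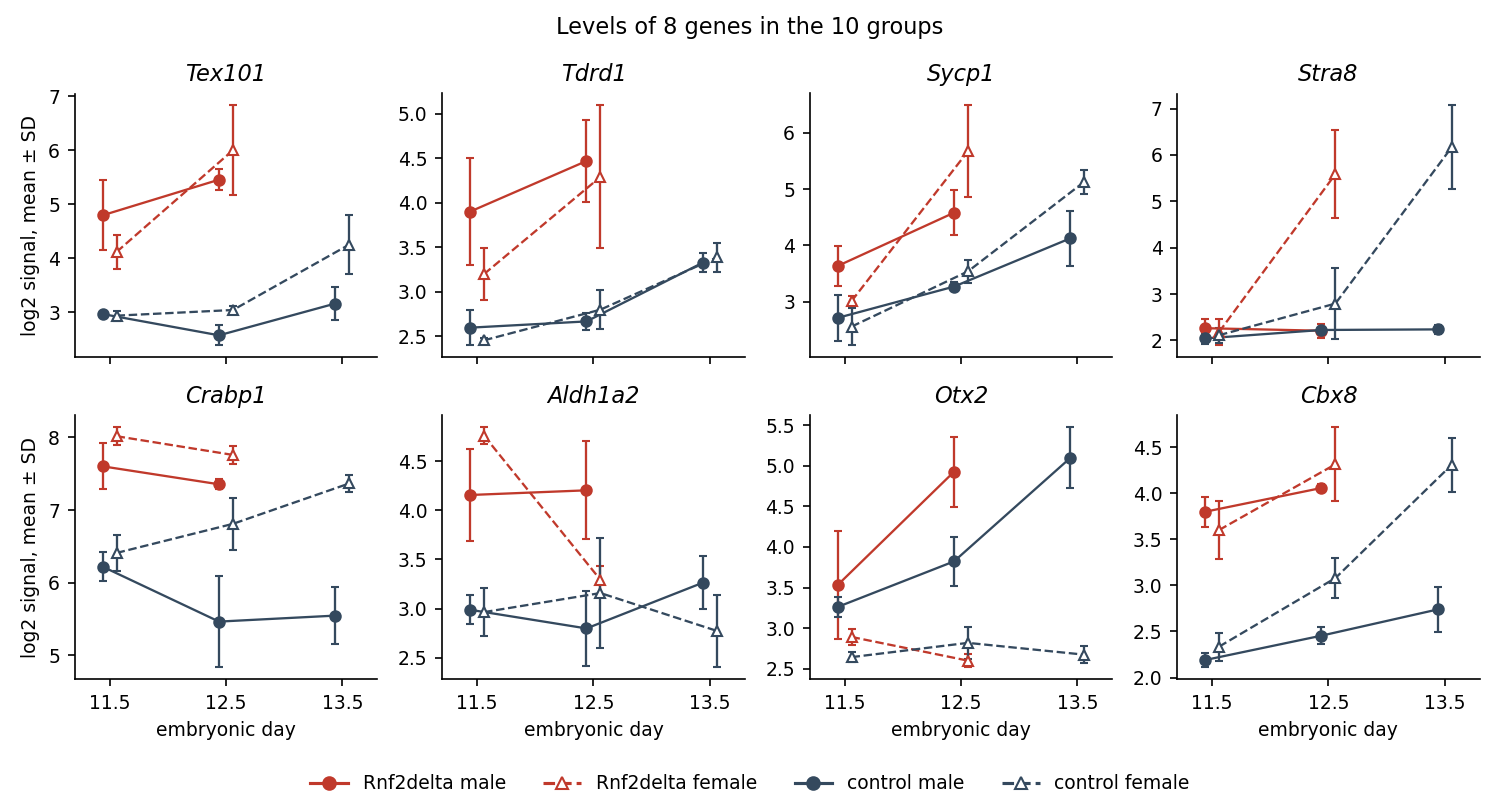
Log2 signal of Tex101, Tdrd1, Sycp1, Stra8, Crabp1, Aldh1a2, Otx2 and Cbx8 by embryonic day in Rnf2delta (red) and control (blue) germ cells, males as filled circles and females as open triangles, mean ± SD with n = 3 arrays per group. Rnf2delta groups exist at E11.5 and E12.5 and controls also at E13.5; Otx2 reaches 4.93 in Rnf2delta males at E12.5 and 5.10 in control males at E13.5.

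The levels of single genes across the 10 groups showed several patterns. Tex101 had 4.80 ± 0.648 in Rnf2delta males at E11.5 and 5.46 ± 0.194 at E12.5, against 2.97 ± 0.0197, 2.58 ± 0.186 and 3.17 ± 0.302 in control males at E11.5, E12.5 and E13.5 (SD, n = 3 each). Rnf2delta males thus stood above control males of all 3 stages. Otx2 had 3.53 ± 0.661 in Rnf2delta males at E11.5 and 4.93 ± 0.434 at E12.5, against 3.26 ± 0.125, 3.82 ± 0.305 and 5.10 ± 0.376 in control males over the 3 stages, and 2.6 to 2.89 in the means of all female groups. Its mean in E12.5 Rnf2delta males lay within 1 SD of the mean of E13.5 control males, the highest of the control groups. Sycp1 had 4.58 ± 0.396 in Rnf2delta males at E12.5 and 4.13 ± 0.483 in control males at E13.5, which overlap within their SDs. Crabp1 had 7.35 ± 0.0711 in Rnf2delta males at E12.5, against 6.22 ± 0.202, 5.47 ± 0.628 and 5.55 ± 0.387 in control males at E11.5, E12.5 and E13.5, so its level in the mutant was above all 3 control means. Ddx58 had 4.2 ± 0.00781 and 4.29 ± 0.156 in Rnf2delta males at E11.5 and E12.5, against 4.89 ± 0.167, 5.49 ± 0.0922 and 6.0 ± 0.183 in control males at E11.5, E12.5 and E13.5. The Rnf2delta means at both stages were below the lowest of these control means. Stra8 stayed between 2.04 and 2.26 in the means of all 5 male groups, while in females it was 5.59 ± 0.951 in Rnf2delta at E12.5, against 2.79 ± 0.77 in controls of that stage and 6.17 ± 0.897 in controls at E13.5. Nanos2 was 2.63 ± 0.263 in Rnf2delta males at E12.5, against 2.76 ± 0.363 in control males at E12.5 and 4.76 ± 0.921 at E13.5.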

How the data were processed

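The authors deposited log2 signals for 34760 probe sets on 30 arrays (10 groups of 3). Per the submitters' processing notes they used R 2.15 and affy 1.36; the background correction, the summary method and the build were not stated there. Probe sets with 1 symbol (21640; 1321 had several and 11799 none listed) were named through Entrez IDs (21553 matched, 87 kept the annotation's symbol) with RefSeq GRCm38.p6, used for names and promoters. The probe set of highest mean stood for a gene; genes above the 40th percentile on fewer than 3 arrays were left out (4757 of 19937). The remaining 15180 were fitted with limma 3.58.1 in R 4.3.3, 1 mean per group over all 30 arrays (20 residual degrees of freedom, prior 8.2), with Benjamini-Hochberg adjustment at 0.05. Same-numbered E11.5 male arrays were taken as paired from the values. Their deviations from the group means correlated at 0.16, 0.12 and 0.10 over genes, all over 0.1. The fit above did not use this pairing, which entered only the alternatives with the replicate number as a block. The code was tested on simulated data. The number of arrays limits the precision.

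Named genes are Rnf2 and Ring1, the 25 largest rises and 12 largest falls among called genes without overlap, list members past the threshold with up to 6 others per list in list order, the 5 smallest p-values per interaction, and globins; others are said to be named after their values were seen. The members and lists were chosen with earlier results of these data known. Alternatives covered array weights, the arrays in the fit, a replicate block, variance trend, quantile normalization, the filter, the probe set rule and leaving out arrays.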

Additional observations from a re-analysis of the deposited data

Results flagged for a closer look

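In 45 genes the genotype effect at E12.5 differed between males and females by a test of the difference in limma. The differences below are the male effect minus the female effect on the log2 scale. The 5 of smallest p were Tmem59 at -1.31, Rny3 at 2.02, Map7d2 at -1.33, Aldh3b3 at -2.34 and Vaultrc5 at 2.73 (limma adjusted p = 0.00157, 0.00259, 0.00328, 0.00636 and 0.0082). With the compared groups only, 4 of these 5 differences did not pass: Tmem59 and Rny3 (adjusted p = 0.0974 each), Map7d2 (0.142) and Vaultrc5 (0.111). The difference of Aldh3b3 was -0.76 with the mean of its probe sets (adjusted p = 0.113) and did not pass with array weights (0.0688). Among genes of meiosis and retinoic acid binding, Stra8 differed by -2.81, Meioc by -2.03 and Crabp2 by -2.09. Rny3 and Vaultrc5 are small noncoding RNAs, as are Rny1 (1.87), Snora52 (1.38), Snora21 (1.26) and Snora3 (0.87), also among the 45. The microRNA Mir505 went the other way, at -1.36. Mean log2 signal of small RNAs was 5.4235, 5.4018 and 5.4746 on E12.5 female control arrays. The highest value on any other array of the series was 5.2399. E12.5 female Rnf2delta arrays had 4.8601, 4.8599 and 4.9041. The E12.5 female arrays also correlated less with their own groups than other arrays did. Their part in these differences was not tested, nor was that of the small RNA signal.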

How the results depend on the processing

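The count of 146 genes in E12.5 males was 285 with array weights and 253 without the 6 E12.5 female arrays, and 73 to 150 when 1 array was left out. Of 57 named genes past the threshold 30 kept their call under every alternative run and 27 lost it in some, with 0 reversed. Zdbf2 and Sfmbt2 were not among the 57. The count of 45 genes that differed between the sexes was 5 with array weights, 1 with the compared groups only and 7 to 313 when 1 array was left out. With both replicates 3 of the E12.5 male groups left out, an alternative chosen after seeing the data, it was 7. The cause was not tested. The 109 calls in E11.5 males were 50 to 99, and the 1502 in E12.5 females 843 to 1925, with 1 array left out, alternatives also chosen after seeing the data. No gene differed between E12.5 and E11.5 males under any alternative run in limma (361 at an unadjusted p under 0.05).

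Of genes never past the threshold, Pou5f1 ranged from -0.21 to 0.049 with 1 array left out, at 0.0044 without Rnf2delta replicate 3, Stra8 from -0.066 to 0.071, at 0.0014 without control replicate 3, Nanos2 from -0.29 to 0.071, at 0.16 without both replicates 3, and Nodal from -0.18 to 0.0399 (log2 changes). The cause of these changes of sign was not tested.

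For pairing by replicate number, the deviations of same-numbered E12.5 male arrays correlated at 0.18, 0.097 and 0.29, not all over 0.1, so the numbers were not taken to pair them; each array correlated best with its own number, a hint from the data. With the replicate block 144 genes passed over all arrays and 199 with the compared groups only, and the sex difference had 39 and 3. For E11.5 males the block gave 116 and 236, and for E12.5 females 1478 and 86; the last 4 counts were added after seeing the data.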
